A study of Brassica napus with 18 samples.

Results

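The genes described here are the 200 gene models of the rapeseed shoot apex (Brassica napus) whose transcript levels varied most between libraries of the same accession. Counts were scaled by the library total and are given as CPM. Of 107233 gene models, 29433 had a mean of 5 CPM or more over 18 libraries. For each of these the SD of log2(CPM + 1) over the 3 libraries of an accession was averaged over the 6 accessions, and the 200 highest were taken. Field-grown shoot apices were sampled, and the libraries are poly(A)-selected. Haplotype 1 of BnaC3.LFY, the LEAFY copy on chromosome C03, is represented by R5044, R5159 and R5161, and haplotype 2 by R4168, R4210 and R4817, with 3 libraries each. No treatment, time point or age is named in the labels, and how many plants went into a library is not stated there. P-values between accessions therefore measure only the spread between these libraries, which may be technical.

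Brassica napus is an allotetraploid that carries an A subgenome, from a relative of turnip, and a C subgenome, from a relative of cabbage. Most genes are present as an A copy and a C copy on corresponding (homoeologous) chromosomes, such as A01 and C01, and reads from copies of similar sequence can be hard to assign. The shoot apex holds the meristem, leaf primordia and, after the floral transition, young inflorescence and flower buds, so its RNA is a mixture of cell types and stages. In such bulk samples fewer cells of a type and less RNA per cell cannot be told apart. The files do not pair the identifiers with gene names and none matched the RefSeq name table, so roles of single genes, cell type markers and the targeted LFY copy were not analysed here, and no sequences are shown.

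The members were chosen by their SD between libraries, so these values are given as a description. The average SD was 1.63 log2 units for the first member and had a median of 0.85 over the members, against 0.20 over the 29433 gene models. At the threshold, the members ranked 199 and 200 had 0.740 and 0.739, and the next 2 gene models 0.737 and 0.734. The members' mean level ran from 5.19 to 1655 CPM, with a median of 21.5 CPM against 15.7 CPM over the 29433. Total counts ran from 21960992 to 41459636 per library, so that 3 counts, used here as the floor of detection, correspond to 0.0724 to 0.137 CPM. This floor covers counting error only. From 39348 to 44372 gene models reached 1 CPM in a library, and the 100 most abundant took 7.8% to 13.2% of its counts.

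R4817 had the widest spread. The median SD of the members was 1.53 log2 units in R4817, where that of all 29433 gene models was 0.18. It was 0.61 in R5044 (0.14 over all), 0.57 in R4210 (0.17), 0.47 in R5161 (0.15), 0.44 in R5159 (0.25) and 0.35 in R4168 (0.17). R4817 was the accession with the largest SD for 87 members and R5161 for 58, while R5044 had 18, R5159 and R4168 13 each and R4210 11. In 49 members a single accession gave more than 50% of the summed SD. In 76 members (38%, against 1.45% of the 29433) a library with 5 CPM or more stood beside a library of the same accession with 3 counts or fewer, in 43 of them within R4817.

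Library 3 lay between libraries 1 and 2 in most members in every accession except R5159, where it did so in 41.5%. In R4817, library 3 lay between the other libraries in 194 of 200 members (97.0%, against 57.6% of the 29433 gene models). The corresponding shares were 77.0% in R5044, 74.0% in R4210 and 72.5% in R5161 (51.2%, 41.1% and 47.1% over all). In R5159 the 41.5% for library 3 stood against 19.2% over all, while library 1 lay between the others in 30.5% of members (40.5% over all) and library 2 in 33.5% (43.0%). In R4168 library 1 stood apart, as the library furthest from the accession mean in 69.0% of members (52.7% over all), while libraries 2 and 3 were the furthest in 14.5% and 14%. Library 3 of R4168 lay between the others in 55.5% of members (44.9% over all). The furthest library was library 2 in 64.5% of members in R5044 and 62.0% in R4210, mostly because it was low (116 and 94 members). Over all gene models these shares were 42.6% and 41.4%. In R4817 it was library 1 in 114 members (57.0%, against 40.4% over all), low in 109 of them. Library 2 of R4817 was the furthest in 82 (41.0%, close to the 41.8% over all), low in 70.

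**Figure D1:**
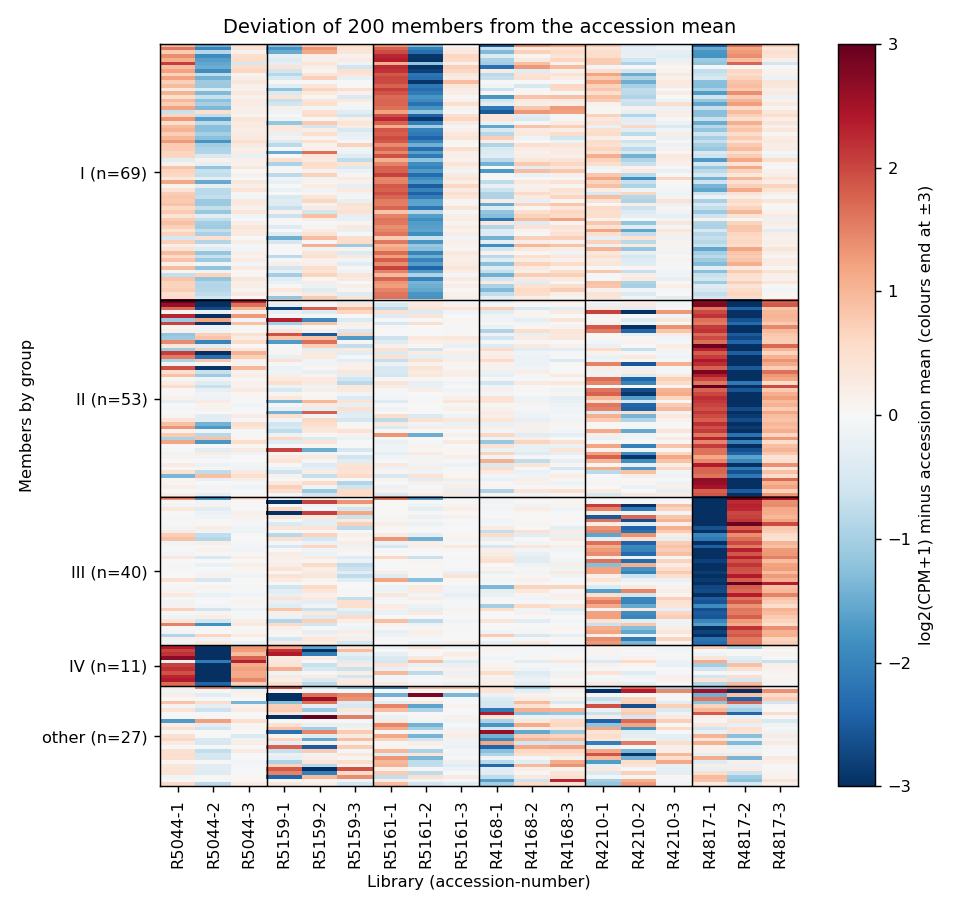
Heat map of 200 members (vertical axis, by group of co-varying members) in 18 libraries (horizontal axis); colours give log2(CPM + 1) minus the mean of the accession, red for higher and blue for lower. The columns of R4817 library 1 and library 2 have opposite colours in groups I, II and III, and library 3 of most accessions is paler than libraries 1 and 2.

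Library 3 had an intermediate level where libraries 1 and 2 parted completely, except in R4168. Over all gene models of the table, 489 in R4817 had 5 CPM or more in library 1 or 2 and 3 counts or fewer in the other. In the 291 with transcript in library 1, library 3 had a median of 47.4% of the library 1 level (quartiles 41.6% and 55.4%). In the 198 with transcript in library 2 it had 51.7% (44.1% and 60.4%). R5044 had 91 such gene models with transcript in library 1, 83 of them on chromosome A09, and library 3 had 49.8% of their level (44.5% and 54.8%). In R4210 there were 59, with 52.8% in library 3 (44.9% and 61.4%), and in R5161 there were 28, with 32.2% (26.8% and 39.5%). R5159 showed wider ranges, with 32.4% (18.5% and 48.0%) in 56 and 43.0% (30.6% and 57.1%) in 46 gene models. In R4168 the 13 gene models with transcript in library 2 had 92.8% of that level in library 3, and the 13 with transcript in library 1 had 1.41%. In R4817 the same criteria parted libraries 1 and 3 in 103 gene models, 2 of them with library 3 as the low one. They parted libraries 2 and 3 in 145, none of them with library 3 as the low one. The cause of the order of the libraries was not tested. The 3 libraries of an accession were kept as separate samples, and results between accessions are given with and without the libraries numbered 3.

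**Figure D2:**
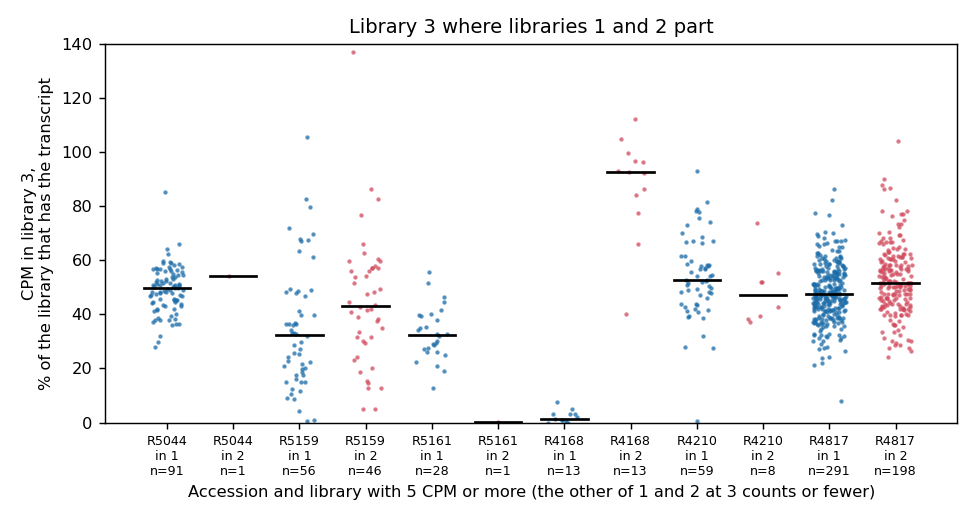
CPM in library 3 as a percentage of the CPM in the library that has the transcript (vertical axis), for gene models with 5 CPM or more in library 1 (blue) or 2 (red) and 3 counts or fewer in the other; each point is a gene model and black lines are medians. In R4817 both columns centre near the same share, with medians of 47.4% and 51.7%, whereas in R4168 the medians are 1.41% and 92.8%.

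The member with the highest average SD, BnaA09T0021600ZS, shows this arrangement in R5044 and R4817. It had 812, 0.493 and 392 CPM in libraries 1, 2 and 3 of R5044 (18 counts in library 2) and 518, 2.61 and 262 CPM in those of R4817. The 3 libraries of R5159 had 430, 453 and 294 CPM, those of R5161 377, 497 and 390, and those of R4210 706, 769 and 662. Those of R4168 were higher than all others, at 1199, 1662 and 1647 CPM. Library 2 was therefore all but without this transcript in R5044 and R4817, and library 3 was intermediate, while the other 4 accessions had it in every library.

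The second member, Bnascaffold0026T0051400ZS on an unplaced scaffold, varied without that order. Its levels were 4.94, 12.9 and 0.462 CPM in R5044, 9.04, 0.619 and 0 in R5159, and 0.491, 10.9 and 10.8 in R5161. In haplotype 2 they were 12.1, 3.51 and 12.3 CPM in R4168, 1.12, 10.3 and 0.698 in R4210, and 0.504, 8.93 and 2.23 in R4817. Every accession had a library above 8 and another below 4 CPM, and library 3 was between the others only in R4817 and R5161.

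The members fell into 4 groups of at least 10 that moved together, when joined by average linkage while the average correlation of their deviations stayed at 0.5 or more. These groups held 173 members, and the other 27 fell into 9 small clusters of at most 8. Over all member pairs 27.3% had a Pearson r of 0.5 or more across the 18 deviations, against 9.81% of pairs of the 29433 gene models, and 7.01% had -0.5 or less against 6.9%. The first 3 principal components of the members' deviations held 40.2%, 21.9% and 11.5% of their sum of squares. The deviations come from 18 libraries in 6 accessions and chose the members, so these values describe them without a test.

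Group I, with 69 members on all 19 chromosomes (32 on A and 37 on C chromosomes), was spread over the genome and moved in every accession. In R5161 library 1 was the highest and library 2 the lowest for all 69 members, with median levels of 65.4, 3.86 and 22.6 CPM in libraries 1, 2 and 3. In R5044 the medians were 24.3, 6.13 and 14.2 CPM, with library 1 highest in 64 members. In R4210 they were 27.1, 10.9 and 18.6 CPM, with library 1 highest in 55. The direction was turned round in haplotype 2 accession R4817, where library 2 was the highest in 68 members and the medians were 7.85, 28.2 and 19.8 CPM. In R4168 library 1 was the lowest in 54 (6.02, 13.1 and 15.1 CPM), and in R5159 in 40 (4.03, 6.92 and 5.68 CPM). The library number therefore did not mark a shared high or low state across accessions. The median pairwise r within the group was 0.82, and it was 0.69 without the libraries of R5161, in which 56 of the 69 had their largest SD. Only 2 of the 69 members had 5 CPM or more in one library and 3 counts or fewer in another of the same accession, so the group varied by degree.

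BnaA03T0177700ZS followed the mean of group I most closely (r = 0.98). It had 162, 3.16 and 48.0 CPM in libraries 1, 2 and 3 of R5161 and 26.3, 3.12 and 18.04 CPM in those of R5044. It had 23.6, 8.58 and 11.2 CPM in R4210, 5.58, 25.5 and 15.2 CPM in R4817 and 4.38, 11.8 and 15.4 CPM in R4168. R5159 was low throughout, with 2.67, 4.45 and 4.85 CPM. R5161 spanned the widest range, and the order of libraries 1 and 2 in R4817 and R4168 was the reverse of that in R5161, R5044 and R4210.

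**Figure D3:**
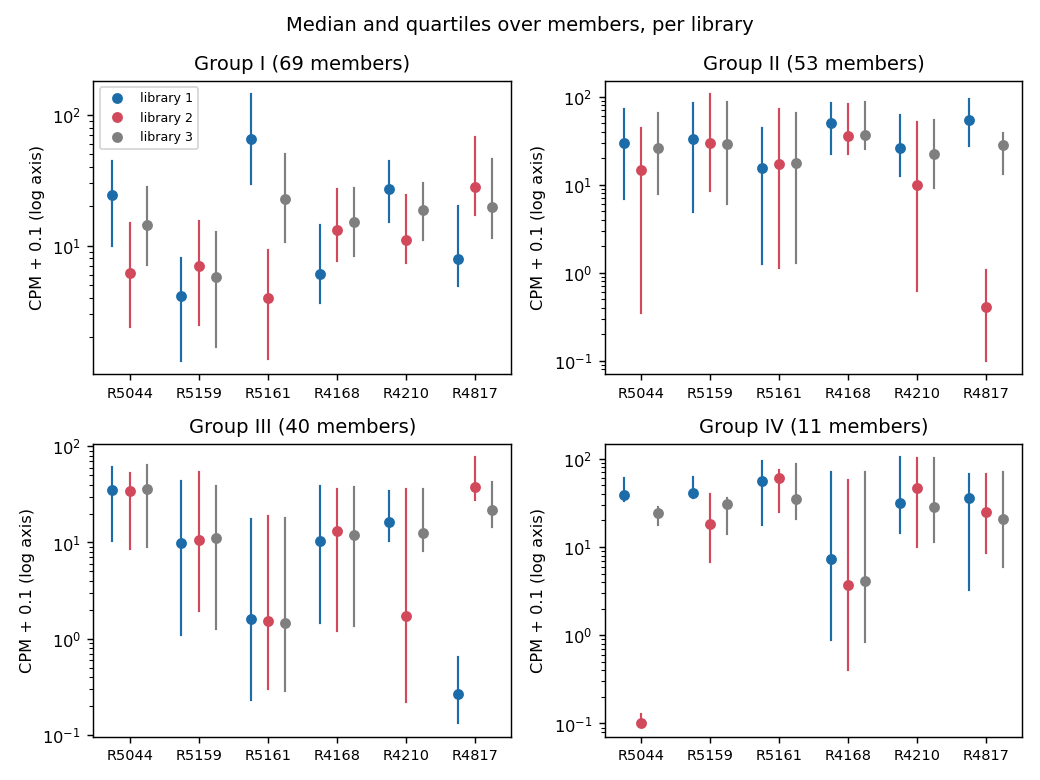
CPM + 0.1 on a log axis (vertical) in libraries 1 (blue), 2 (red) and 3 (grey) of each accession (horizontal), for the 4 groups; points are medians over the members and lines join the quartiles. Group I differs between libraries in every accession, groups II and III part libraries 1 and 2 of R4817 in opposite directions, and group IV has a median of 0 CPM in library 2 of R5044.

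Groups II and III moved in opposite directions in R4817. Library 1 of R4817 was the highest and library 2 the lowest for all 53 members of group II, with medians of 54.0, 0.31 and 27.9 CPM in libraries 1, 2 and 3, and 22 members had 3 counts or fewer in library 2. Library 2 was the highest and library 1 the lowest for all 40 members of group III, with medians of 0.168, 37.8 and 21.8 CPM, and 19 members had 3 counts or fewer in library 1. In R4210 both groups went the same way. Group II had medians of 25.9, 9.82 and 22.4 CPM and group III of 16.1, 1.63 and 12.6 CPM, with library 2 the lowest in 35 of 53 and in 29 of 40 members. Without R4817 the median pairwise r fell from 0.71 to 0.08 in group II and from 0.77 to 0.19 in group III, so the correlation within each group rested on R4817. Many of their members lay on few chromosomes, with 16 of the 53 members of group II on C01 and 15 on A09, and 22 of the 40 members of group III on A01. The rest were scattered, so that group II had members on 15 chromosomes in all and group III on 12.

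BnaA09T0018900ZS lay closest to the mean of group II (r = 0.97). It had 103, 0.575 and 48.9 CPM in R4817 and 326, 82.5 and 206 CPM in R5044, with library 2 the lowest in both. In R5159 it had 353, 339 and 258 CPM, in R5161 184, 344 and 310, and in R4210 61.2, 40.5 and 68.7. R4168 was at 0.225, 0.404 and 0.775 CPM, below every library of the other accessions apart from library 2 of R4817, which lay within that range. BnaA01T0405500ZS lay closest to the mean of group III (r = 0.99). It had 0.042, 52.4 and 29.7 CPM in R4817, a single count in library 1, and 31.6, 5.27 and 16.2 CPM in R4210. The libraries of the remaining accessions were alike within each accession, with 81.3, 75.8 and 79.7 CPM in R5044, 122, 108 and 101 in R5159, and 4.44, 4.44 and 4.99 in R4168. In R5161 the gene was at 3 counts or fewer in each library. It therefore differed widely between accessions and, in R4210 and R4817 only, between libraries.

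Group IV, with 11 members, parted the libraries of R5044. All 11 had their largest SD there and their lowest level in library 2, where 10 of them had 3 counts or fewer. The medians in R5044 were 39.0, 0 and 23.9 CPM. In R5159 library 2 had a median of 18.2 CPM beside 40.5 and 30.8. Without R5044 the median pairwise r fell from 0.83 to 0.17. Of the 11 members, 10 lay on A09. The closest to the group mean, BnaA09T0027800ZS (r = 0.97), had 47.9, 0.0274 and 24.4 CPM in R5044, a single count in library 2. It had 40.9, 13.3 and 11.5 CPM in R5159, 19.8, 25.7 and 26.0 in R5161, 19.5, 16.4 and 17.3 in R4168, 5.64, 5.88 and 5.84 in R4210, and 6.003, 13.4 and 10.4 in R4817. Only R5044 had a library at the floor.

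The members were not spread evenly along the genome, a feature the rule did not use. A09 held 30 members (15.0%, against 7.36% of the 29433 gene models), A01 held 26 (13.0%, against 4.8%) and C01 held 21 (10.5%, against 5.02%). By subgenome the shares were 54.5% on A chromosomes and 44.5% on C chromosomes, against 47.9% and 52.1%. After the data were seen, runs were defined as 5 or more members on a chromosome with at most 100 gene numbers between neighbours, and 3 runs with 63 members were found. Gene numbers are those within the identifiers, not base pairs. The runs cover genes 121 to 443 of A09 (25 members), genes 3831 to 4133 of A01 (22) and genes 4487 to 4713 of C01 (16). They held 128, 79 and 69 gene models with a mean of 5 CPM or more, of which 19.5%, 27.8% and 23.2% were members. The A01 run held 21 members of group III and 1 of group II, the C01 run 15 of group II, and the A09 run 14 of group II, 10 of group IV and 1 of group III.

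Over the 322 gene models of the A01 run, libraries 1, 2 and 3 of R4817 summed to 826, 3764 and 2416 CPM and those of R4210 to 2316, 927 and 1744 CPM. The other accessions varied by less than 1.13 times between libraries, with means of 3993 ± 73.2 CPM in R5044, 3776 ± 234 in R5159, 1142 ± 25.6 in R5161 and 2197 ± 63.0 in R4168 (SD, n = 3 libraries). Over the 247 gene models of the C01 run, R4817 had 2586, 497 and 1489 CPM and R4210 had 1402, 276 and 964 CPM. The other accessions had 2301 ± 17.7 CPM in R5044, 4499 ± 108 in R5159, 1371 ± 41.1 in R5161 and 2339 ± 20.01 in R4168. Without the members, the A01 run still summed to 757, 2443 and 1700 CPM in R4817 and to 1619, 808 and 1299 CPM in R4210. The C01 run without them summed to 1730, 467 and 1056 CPM in R4817 and to 933, 261 and 662 CPM in R4210, so the other gene models of both runs parted the same libraries. The A01 and C01 runs therefore went in opposite directions between libraries 1 and 2 of R4817 and in the same direction in R4210. Whether the genes of the A01 and C01 runs are copies of each other was not tested, since the files do not pair A and C copies.

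On A09 the run as a whole parted the libraries of R5044. Its 345 gene models summed to 6401, 1541 and 3998 CPM in libraries 1, 2 and 3 of R5044 and to 3917, 2732 and 3294 CPM in those of R4817. Without the members the sums were 4149, 1379 and 2785 CPM in R5044 and 2298, 2251 and 2247 CPM in R4817. In R4817 the sum over the other gene models of the run was thus nearly level, and the sums parted in the members, which were chosen for such differences. A level sum does not mean that each of the other gene models was level. Of the whole run, 172, 125 and 164 gene models reached 1 CPM in libraries 1, 2 and 3 of R4817. The fall from library 1 to library 2 exceeds the 25 members of the run, so other gene models parted as well. The other accessions had 4830 ± 155 CPM in R5159, 6832 ± 453 in R5161, 5412 ± 164 in R4168 and 5981 ± 83.4 in R4210 (SD, n = 3 libraries). Library 3 lay between libraries 1 and 2 in all 5 pairs of run and accession whose libraries differed by more than 2 times, which are R4817 and R4210 on A01 and on C01 and R5044 on A09.

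**Figure D4:**
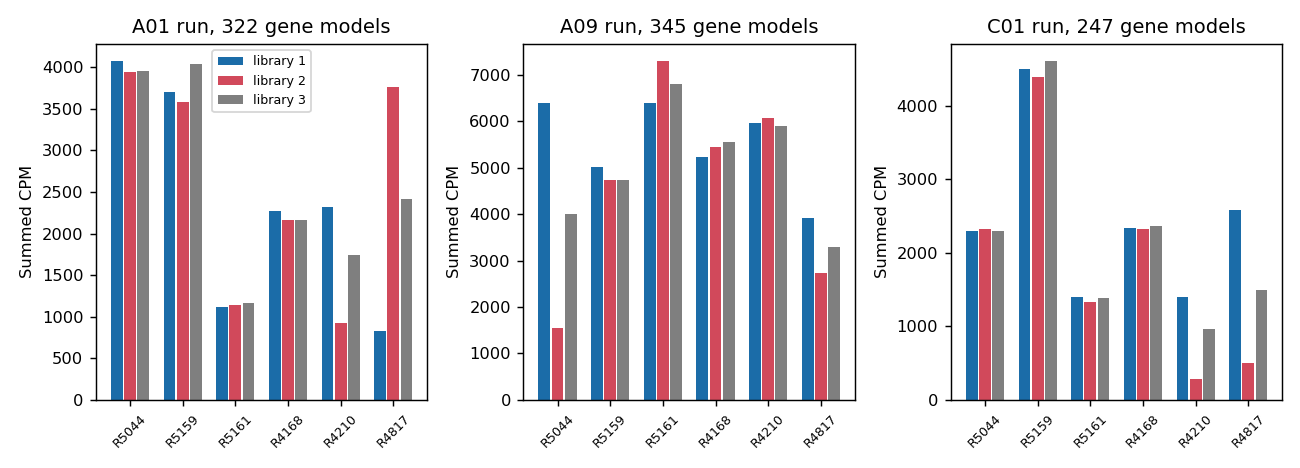
Summed CPM (vertical axis, from 0) of all gene models in the 3 runs of members, in libraries 1 (blue), 2 (red) and 3 (grey) of each accession (horizontal axis). In R4817 the A01 run is lowest in library 1 (826 CPM) and the C01 run in library 2 (497 CPM), and in R5044 the A09 run is lowest in library 2 (1541 CPM).

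When the rule was applied to 5 accessions and the 200 genes so chosen were measured in the one left out, their median SD there was 0.54 in R4817, against 0.18 over all gene models that passed the same mean. It was 0.35 in R5159 (0.25 over all), 0.25 in R4210 (0.17), 0.24 in R5044 (0.14), 0.22 in R4168 (0.17) and 0.17 in R5161 (0.15). Between 56.5% (R5161) and 85.5% (R4817) of the genes chosen lay above the median of all. In each accession the median was above that of all gene models and below that of the 200 members.

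The members' log2(CPM + 1) values had 33.6% of their sum of squares between libraries of an accession, 41.1% between accessions within a haplotype and 25.3% between haplotypes. Over the 29433 gene models the shares were 11.2%, 44.8% and 44.0%. The first share follows from the rule. To ask whether accession means differed beyond the spread between libraries, an edgeR quasi-likelihood fit with 1 coefficient per accession was made on the whole table, and 199 of the 200 members passed its filter on low counts. The other member, BnaA08T0129700ZS of group III, was not tested. At an adjusted p under 0.05, at least 1 accession differed in 136 of the 199 members (68.3%), against 73.2% of the 58143 gene models tested. By group these were 48 of 69 in group I, 30 of 53 in group II, 30 of 39 tested in group III and 7 of 11 in group IV. The spread in the denominator of this test is what chose the members. With the libraries numbered 3 left out, 36 of the 199 members passed, against 48.8% of all gene models tested, with 5, 12, 11 and 1 of them in groups I, II, III and IV.

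With the 3 libraries of an accession summed and 3 accessions set against 3, 20 of 199 members (10.1%) passed edgeR's quasi-likelihood test between haplotypes (adjusted p under 0.05), against 13.7% of all gene models. Of the 20, 4 were higher in haplotype 1 (6.13% of all were) and 16 were lower (7.57% of all). DESeq2 called 59 members (29.6%), against 35.2% of all gene models in the same fit. The median log2 fold change of the members was -0.17 against -0.03 over all gene models. The median size of the change regardless of sign was 1.02 against 0.65. Without the libraries numbered 3 the count was 18 (9.05%, against 12.4% of all). With 1 accession left out it was 3 without R4210 (1.51%, against 0.518% of all), 6 without R5159 (3.02%, against 3.52%), 8 without R5161 (4.02%, against 3.74%) and 9 without R5044 (4.52%, against 3.77%). It was 11 without R4817 (5.53%, against 4.27%) and 19 without R4168 (9.55%, against 7.62%). The share of members was thus below that of all gene models with all 6 accessions and above it in 5 of the 6 fits with 5.

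BnaC04T0162400ZS and BnaA06T0045400ZS had the lowest fold changes among these calls. BnaC04T0162400ZS had at most 9 counts in any haplotype 1 library, with a mean of 0.0787 ± 0.0184 CPM, and 38.2 ± 31.6 CPM in haplotype 2 (SD, n = 3 accessions). Its haplotype 2 libraries were 1.77, 4.65 and 41.5 CPM in R4168, 29.6, 133 and 61.0 in R4210 and 37.9, 8.14 and 26.9 in R4817, all above every haplotype 1 library. The log2 fold change was -8.83 ± 0.80 (SE, edgeR adjusted p = 0.0102). BnaA06T0045400ZS had at most 5 counts in a haplotype 1 library, with a mean of 0.074 ± 0.0397 CPM. In haplotype 2 it had 40.0, 24.6 and 25.1 CPM in R4168, 9.11, 0.0858 and 7.09 in R4210, and 32.8, 0 and 13.9 in R4817, with a log2 fold change of -7.87 ± 0.93 (SE, edgeR adjusted p = 0.014). Library 2 of R4210 and of R4817 lay within the range of haplotype 1, so the haplotypes overlapped by library and not by accession mean.

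BnaA09T0042800ZS and BnaA09T0034500ZS, both of group IV, had the highest fold changes. BnaA09T0042800ZS had 37.7, 0 and 15.8 CPM in R5044, 36.7, 0.696 and 4.97 in R5159, and 55.6, 67.2 and 78.2 in R5161, and at most 0.396 CPM in haplotype 2. Its log2 fold change was 7.64 ± 1.25 (SE, edgeR adjusted p = 0.0223). BnaA09T0034500ZS had 15.9, 0 and 7.77 CPM in R5044, 13.1, 4.84 and 11.6 in R5159 and 15.8, 11.8 and 11.1 in R5161. In haplotype 2 it ran from 0 in library 2 of R4168 to 3.45 CPM in library 2 of R4817, with a log2 fold change of 3.79 ± 0.80 (SE, edgeR adjusted p = 0.0368). Library 2 of R5044 was at 0 for both genes, and it was the haplotype 1 library that overlapped haplotype 2. BnaA09T0034500ZS missed the threshold without library 1 of R5044 (edgeR adjusted p = 0.0537), without library 1 of R4817 (0.0692) and without the libraries numbered 3 (0.0503). With 1 accession left out both genes missed it in 5 of 6 cases, with adjusted p up to 0.073 and 0.113.

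Single accessions were set against the mean of the other 5 in the same fit of 18 libraries. These 6 comparisons share samples, so their counts are given side by side. The rule favours members that are high in an accession where their libraries vary, so the split into higher and lower is not independent of it. R5161 differed in 97 of the 199 members (48.7%, against 42.4% of all gene models), 51 higher (24.6% of all) and 46 lower (17.8%), and R5159 in 92 (46.2%, against 41.7%), 35 higher (25.0% of all) and 57 lower (16.7%). R4168 differed in 71 (35.7%, against 36.6%), with 46 higher (23.2% of all) and 25 lower (13.4%). R4210 differed in 67 (33.7%, against 47.4%), with 51 higher (27.7% of all) and 16 lower (19.7%). R4817 differed in 67 (33.7%, against 40.2%), with 62 higher (27.1% of all) and 5 lower (13.2%). R5044 differed in 56 (28.1%, against 33.7%), with 35 higher (20.2% of all) and 21 lower (13.5%). The share of members called was above that of all gene models in R5161 and R5159, close to it in R4168 and below it in R4210, R4817 and R5044. Without the libraries numbered 3 it was below in every accession, so that the direction turned round in R5161 (35 members, 17.6%, against 26.7% of all) and R5159 (14 members, 7.04%, against 22.5%). The counts without them were 14 in R4168 (7.04%, against 20.3%), 21 in R4210 (10.6%, against 32.6%), 21 in R4817 (10.6%, against 25.3%) and 15 in R5044 (7.54%, against 18.6%). With a single library left out, R5159 fell to 60 (without library 1) and 53 (without library 3), R5161 to 64 (without library 1), R4168 to 44 and 43 (without library 2 or 3), and R5044 to between 34 and 36 (without any of its own).

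**Figure D5:**
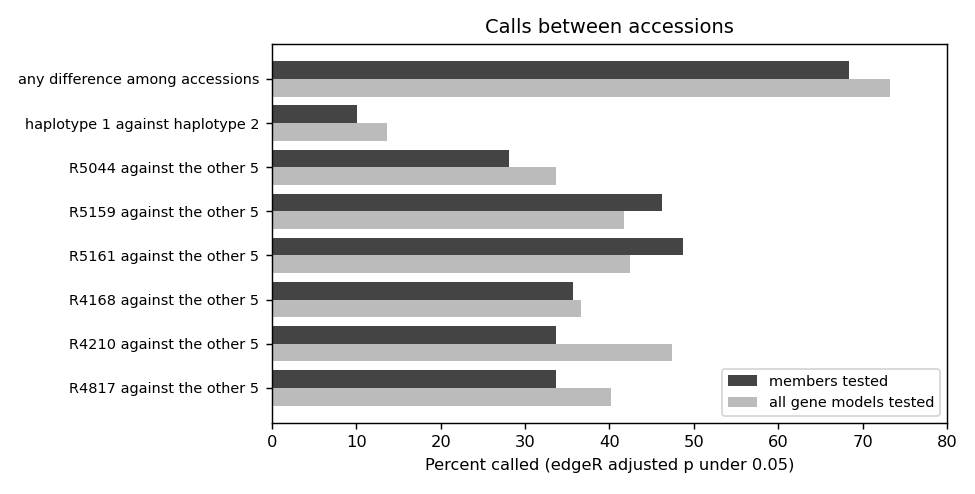
Percentage called at an edgeR adjusted p under 0.05 (horizontal axis, from 0) for the members tested (dark) and all gene models tested (light), by comparison (vertical axis). The members stand at 68.3% against 73.2% for any difference among accessions and at 10.1% against 13.7% between haplotypes.

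The groups also differed between accessions in level, which is not independent of the rule. A large SD in an accession needs a high level in some of its libraries, so the rule favours members that are high where they vary. Of group I, 56 of 69 members had their largest SD in R5161, and of group III, 38 of 40 in R4817. Counts of higher members in these accessions can follow in part from the rule. In R5159, 35 of 69 members of group I were lower than the mean of the other 5 accessions and none passed as higher, with a median log2 fold change of -1.74 (edgeR, adjusted p under 0.05, where 16.7% of all gene models were lower). In R5161, 37 were higher and 4 lower, with a median of 1.51 (24.6% of all were higher). Without the libraries numbered 3 these counts were 2 lower in R5159, where 8.26% of all gene models were lower, and 11 higher in R5161, where 16.5% were higher. In group III, 21 of 39 members were lower and 5 higher in R5161, with a median of -3.08 (17.8% of all were lower). In R5044, 20 were higher and 2 lower, with a median of 1.63 (20.2% of all were higher). The A01 run holds 21 members of group III, and as a whole it was lowest in R5161 and highest in R5044 (means of 1142 and 3993 CPM). Members in the same run cannot be counted as independent genes here. Without the libraries numbered 3, 6 members of group III were lower in R5161 (10.3% of all were) and 7 were higher in R5044 (11.5% of all). Group II was higher in R4168 in 19 of 53 members and lower in 2, with a median of 1.39 (23.2% of all were higher). Without the libraries numbered 3, 8 were higher (13.8% of all) and 1 lower (6.51%). In R4817, 18 of the 39 members of group III were higher and none lower, where 27.1% of all gene models were higher, and 7 were higher without the libraries numbered 3 (18.1% of all).

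By the rule for named genes, the called members with the highest and the lowest fold change in each accession are given by their levels, since many libraries were at 0 and the fitted changes then depend on the prior count. In R5044, BnaA01T0410300ZS was higher, with 52.2, 65.5 and 56.0 CPM against 0 to 19.5 CPM in the libraries of the other 5 accessions (edgeR adjusted p = 1.96e-05). BnaC03T0115600ZS was lower in R5044, with at most 2 counts in each library (edgeR adjusted p = 7.41e-05). Outside R5044 it had 48.5 to 212 CPM in 14 of 15 libraries, and a single count in library 1 of R5159, whose libraries 2 and 3 had 212 and 71.1 CPM. In R5161, BnaA09T0042800ZS, described for the haplotypes, was higher (edgeR adjusted p = 1.06e-05). BnaC01T0468700ZS had no count in R5161 (adjusted p = 0.000542), and elsewhere it had 58.9, 0.531 and 28.4 CPM in R4817 and 5.38, 0 and 2.83 CPM in R4210. R5044, R5159 and R4168 had it in every library, at 9.07 to 26.3 CPM. All 4 genes had a larger SD between libraries in other accessions than in the accession named.

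In R4168, BnaC07T0022400ZS was higher, with 41.6, 32.4 and 31.9 CPM (edgeR adjusted p = 0.000307), beside 42.5, 0 and 21.8 CPM in R4817 and at most 8.36 CPM in the other accessions. BnaA09T0044300ZS had no count in R4168 (adjusted p = 0.000864), while R5044 had 8.98, 0 and 3.41 CPM and R4817 3.15, 27.5 and 17.4 CPM. In R4210, BnaC07T0490900ZS was higher, with 35.2, 96.1 and 49.7 CPM (adjusted p = 5.23e-05), and R4817 had 30.6, 0.708 and 11.9 CPM of it. BnaA09T0316300ZS had at most 3 counts in each library of R4210 (adjusted p = 0.003), and R4168 was nearly without it as well, with 0, 5 and 5 counts. The libraries of R4817 had 0, 456 and 256 CPM. Its level in R5161 was 308, 33.1 and 104 CPM and in R5044 283, 34.0 and 150 CPM, the same order of libraries in both. R4817 had the reverse order of libraries 1 and 2 for this gene.

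In R5159, BnaA09T0015600ZS was called higher than the mean of the other 5, with 40.5, 0.0774 and 16.6 CPM (edgeR adjusted p = 0.00186). Its mean of 19.1 CPM in R5159 was nevertheless below the means of R5044 (20.4 CPM) and R4210 (29.9 CPM). The libraries of R5044 had 39.0, 0 and 22.1 CPM of it and those of R4210 31.7, 29.6 and 28.4 CPM, and R5161, R4168 and R4817 had at most 2 counts per library. BnaC04T0100200ZS had no count in R5159 (adjusted p = 0.00364), and R5161 and R4817 nearly lacked it as well, with at most 0.436 and 0.796 CPM. It had 23.0, 55.6 and 67.6 CPM in R4168, 2.44, 59.3 and 29.5 in R4210 and 0.633, 11.5 and 6.38 in R5044. In R4817, BnaC02T0255900ZS was higher, with 59.3, 4.86 and 30.3 CPM (adjusted p = 5.82e-06), against at most 11.7 CPM elsewhere. BnaC01T0460300ZS was lower, with 4.70, 0 and 2.19 CPM (log2 fold change -2.83 ± 0.79, SE, adjusted p = 0.00833), against 0.557 to 76.2 CPM elsewhere. Without the libraries numbered 3, the calls of BnaA09T0015600ZS (edgeR adjusted p = 0.0677), BnaC04T0100200ZS (0.0588), BnaA09T0044300ZS (0.054), BnaA09T0316300ZS (0.073) and BnaC01T0460300ZS (0.156) were lost. Their fitted log2 fold changes moved little, to 6.54 from 6.62, to -9.92 from -9.81, to -10.86 from -10.85, to -9.00 from -8.91 and to -2.78 from -2.83, in the same order. BnaC04T0100200ZS and BnaA09T0044300ZS had no count in the accession named. Their fitted changes depend on the prior count with or without these libraries, so this steadiness carries no weight for them.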

How the data were processed

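Raw counts per gene model were deposited by the authors as 1 table of whole numbers. The submitters' processing notes name HISAT2 2.2.1 and featureCounts. Their settings, the genome build and annotation, the strand setting and the handling of multiply aligned reads are not stated, so similar A and C copies may share reads. Column names equal the accession and replicate of the sample titles, and 0 columns belonged to no sample. None of the identifiers was found among 123214 entries of RefSeq's Da-Ae name table (0 matches).

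CPM values used column totals. The members, groups, runs and lists were chosen with earlier results of these data known. Fits used R 4.3.3 with edgeR 4.0.16 (TMM, filterByExpr, quasi-likelihood, Benjamini-Hochberg over all gene models tested). The SE is the log2 fold change divided by the square root of F. DESeq2 1.42.0, DESeq2 size factors, no filter, left-out libraries and accessions, other forms of the rule and a replicate block were alternatives. Descriptions used Python 3.11.15, numpy 2.4.6 and scipy 1.17.1. The fits and the rule were tested on simulated data. For the fits, every gene had the median dispersion, so the wide spread of the members was not simulated. Accessions of a haplotype did not differ in the simulation, whereas 44.8% of the sum of squares over all gene models lay between them. Of 200 genes changed 2-fold, 141 were recovered by the test among accessions and 184 by that between haplotypes, each with 9 false calls. At 4-fold both recovered 200, with 5 and 13 false calls. The recovery between haplotypes therefore does not give the power of that test in these data. Named are the first 2 members, the member nearest to each group's mean, the 2 highest and 2 lowest calls between haplotypes, and the highest and lowest call of each accession.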

Additional observations from a re-analysis of the deposited data

How the results depend on the processing

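Leaving out the 6 libraries numbered 3 was chosen after seeing the data. It leaves 2 per accession, and the members called fell from 136 to 36 for any difference among accessions, and to 15 in R5044, 14 in R5159, 35 in R5161, 14 in R4168, 21 in R4210 and 21 in R4817 against the other 5. Between haplotypes, 59 members passed with DESeq2 (29.6%, against 35.2% of all gene models), and 3 to 29 with 1 library or accession left out, against 20. With 1 library left out, the counts ran from 131 to 158 for any difference, 52 to 82 in R4210, 48 to 81 in R4817, 34 to 61 in R5044, 53 to 102 in R5159, 64 to 106 in R5161 and 43 to 87 in R4168. Replicate numbers were not taken to pair libraries. Deviations of same-numbered libraries correlated at -0.19 to 0.30 over 45 pairs, with 6 above 0.1. Those of differently numbered libraries correlated at -0.29 to 0.17 over 90 pairs, with 9 above 0.1. The 3 deviations of an accession sum to 0, so the correlations of any pair of accessions are linked. The highest same-numbered value and the lowest differently numbered one both came from R5044 with R5161. Where the highest values fell therefore does not show an effect of the number, and most pairs of both kinds were low. Under the replicate block, 133 members differed among accessions, and no count of calls moved by over 1.5 times. Of the 200 members, 130 were chosen again with log2(CPM + 0.1), 108 with a mean of 20 CPM or more, 104 with the median of the 6 SDs, 76 by edgeR's tagwise dispersion and 118 without R4817. Leaving out 1 library kept 152 to 190 of them, and leaving out the libraries numbered 3 kept 182. The causes of these shifts were not tested. Of 376 repeats of the 16 named results, 358 passed and 0 reversed. These results were picked as the most extreme calls, and most repeats left out only 1 library, so a high share was likely from the start. Without the libraries numbered 3, 10 of the 16 passed. Members near 5 CPM rest on few counts in libraries where they are low.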

Other observations

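The libraries of R5044 also parted over gene numbers after 2000 of A02, up to 4203, and after 2700 of C02, up to 5574. Of the gene models there with a mean of 5 CPM or more, 2 of 559 on A02 and 5 of 636 on C02 were members. Over all 29433 such gene models the share was 0.68%. Both starting points were picked from these data. The 2352 gene models after gene number 2000 of A02, 2 of them members, summed to 19379, 10398 and 14798 CPM in libraries 1, 2 and 3 of R5044. In the 15 libraries of the other accessions they summed to between 16981 and 19212 CPM. The 3014 gene models after gene number 2700 of C02, 5 of them members, summed to 10031, 27881 and 19018 CPM in libraries 1, 2 and 3 of R5044, against 18133 to 20661 CPM elsewhere. Library 1 was near the other accessions on A02 and low on C02, library 2 was low on A02 and high on C02, and library 3 lay between them on both.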
